A study of Mus musculus with 41 samples.

Results

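The alpha-tubulin genes described here are Tuba1a, Tuba1b, Tuba1c, Tuba3a, Tuba3b, Tuba4a and Tuba8, 7 of the 55536 genes in each of 2 deposited count tables. They were taken by symbol, through the GENCODE M21 annotation, and all 7 had 1 row in each table. The family was chosen by measured values, the low RNA-seq levels of Tuba3a and Tuba3b in libraries labelled Rhox10-null. The values of that contrast are therefore given as a description, with no test. For the members, tests are given only for a cell culture experiment, whose values this choice did not use. Lists of other genes are tested in that contrast too. The members and these lists were chosen with earlier results of these data known.

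The 41 mouse samples, all of strain C57BL/6, were made to study RHOX10, a transcription factor with a homeodomain that is encoded on the X chromosome and acts in male germ cells. RNA-seq was made from testis cells that carried an Oct4-eGFP reporter and were sorted for eGFP, with 4 wild-type and 4 Rhox10-null libraries, each from the testes of 3 pooled animals whose age is not in the labels. iSLAM-seq sequences RNA around the metabolic labelling of new transcripts after a transcription factor is switched on. It was made from germline stem cells, cultured spermatogonia derived from neonatal (P0-P1) testes. All these cells carried a short hairpin RNA against endogenous Rhox10, delivered by lentivirus, and were sorted for GFP. They carried either a Rhox10-ERT2-mCherry fusion, which 4-hydroxytamoxifen activates, or the empty ERT2-mCherry vector (Ctrl). Both were sampled at 0, 0.5, 1, 2, 4 and 8 h, with 2 libraries per vector and time and 24 in total. In CUT&Tag an antibody guides a transposase to the DNA its target occupies, and 3 libraries mapped HA-tagged RHOX10 in knockdown germline stem cells. The signals of its 2 control groups, IgG and empty vector, were not used here.

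Alpha-tubulin pairs with beta-tubulin, and these dimers polymerise into the microtubules of the mitotic spindle, the axoneme and the cytoskeleton. Several genes encode near-identical alpha-tubulins, and the Tuba3 genes are known for expression in the testis. Most alpha-tubulins end in a gene-encoded tyrosine, which carboxypeptidases remove and tubulin tyrosine ligase puts back. Tubulins are also acetylated, polyglutamylated and folded by dedicated chaperones, and free tubulin dimers regulate the decay of tubulin mRNAs. ERT2 is a hormone-binding part of the oestrogen receptor that keeps a fused protein inactive until tamoxifen is added.

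RNA-seq libraries held 6602089 to 8278887 counts and iSLAM-seq libraries 9419615 to 12645845. The most counted gene of a library held 58.0% to 59.4% of counts in wild-type and 51.0% to 52.7% in Rhox10-null RNA-seq. In iSLAM-seq it held 0.53% to 0.73%. Levels are CPM (counts scaled to a common library total) of TMM-scaled library sizes. RNA-seq replicates correlated at 0.972 or higher. In iSLAM-seq the 2 Ctrl libraries at 0.5 h stood apart at 0.956, below the other pairs at 0.967 to 0.979. Counts of Rhox10 itself ran from 3 to 10 in wild-type and from 4 to 11 in the other libraries, so RNA-seq counts did not check the genotype, and the libraries are called labelled null. In iSLAM-seq, Rhox10 had 0.202 to 2.42 CPM in Ctrl and 34.1 to 46.7 CPM in the Rhox10 vector libraries, which contain the transgene. All 18 genes of a germ cell marker list had counts in both assays.

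The members' sequences are shown first, because the copies differ so little that reads can be divided between them. The coding sequences of Tuba3a and Tuba3b were 97.0% identical, with 41 mismatches over 1353 bases. Those of Tuba1a, Tuba1b and Tuba1c were 97.6% to 98.4% identical to each other. Across the groups, Tuba3 and Tuba1 genes shared 83.6% to 85.2% of coding bases, and Tuba8 stood furthest from the rest at 79.2% to 81.5%. The last 30 coding bases of 4 members, from GENCODE M21 transcripts, are given with the last sense codon in capitals, since that codon sets whether the protein enters the tyrosine cycle.
Tuba3a: gcagaggcagaagaaggggaggagTACtga
Tuba3b: gcagaggcagaagaaggggaggagTACtga
Tuba4a: tatgaggacgaggatgagggagaaGAGtag
Tuba8: gaagaagagaatgagggggaggaaTTTtaa
Tuba3a and Tuba3b end in TAC, a codon for tyrosine. Tuba4a ends in GAG, a glutamate codon, and Tuba8 in TTT, a phenylalanine codon. The ends of Tuba3a and Tuba3b were the same base for base.

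Shared sequence was measured in 50-base stretches of each transcript. Of the stretches in Tuba3a, 33.6% were also found in a gene elsewhere in the annotation, and in Tuba3b 29.5%. The other Tuba3 gene alone held 32.4% and 27.4%, and the remainder lay mostly in Gm5366. Over the last 300 bases, where 3′ end libraries read, the shares were 59.4% and 70.9%. Tuba1a, Tuba1b and Tuba1c shared 61.0% to 73.0% of whole-transcript stretches and 21.5% to 43.0% of the last 300 bases. Genes outside the family held many of these, such as Gm17383 with 46.6% of Tuba1a, 47.7% of Tuba1b and 37.7% of Tuba1c stretches. Tuba4a and Tuba8 shared 1.1% and 0.2%, and none at their ends. How the authors counted reads that fit several genes is not given in the sources used here. Each Tuba1 and Tuba3 value is therefore uncertain in how it was divided among the copies and such other genes. Summing the copies does not remove the part shared with other genes. Stk16, a protein-coding gene on the opposite strand, covers 37.3% of the Tuba4a exon bases and all of its last 300, and the strand setting of the counting is also not given. Gm49450, on the same strand, covers 26.2% of Tuba1a and 22.7% of Tuba1b exon bases and had 0 counts in every library.

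**Figure D1:**
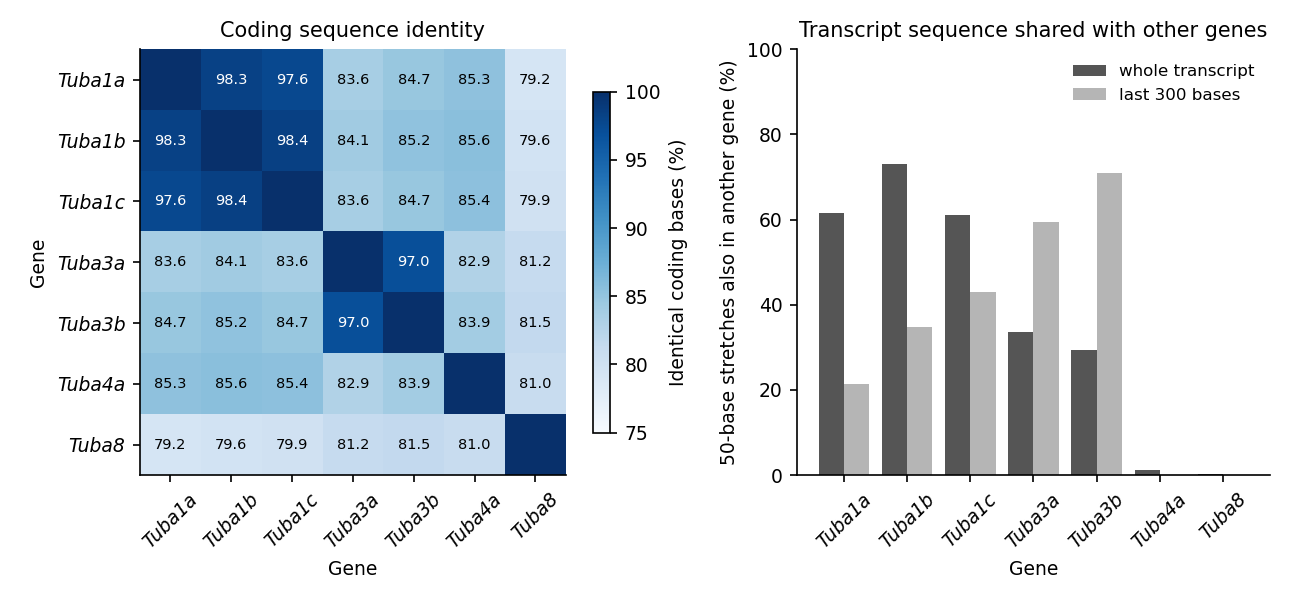
Percentage of identical coding bases for each pair of genes (left) and percentage of 50-base stretches of each transcript, or of its last 300 bases, that also occur in another gene that does not overlap it (right). Tuba1a, Tuba1b and Tuba1c form one block above 97% and Tuba3a with Tuba3b another at 97.0%, and the Tuba3 genes share more of their ends than of their whole transcripts.

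All 7 members had a promoter in RefSeq on build GRCm38.p6, taken as 250 bases before the start site to 50 after. Those of Tuba3a and Tuba3b are shown because both genes stood at the low end of the RNA-seq contrast, and that of Tuba1a because it held the family's only RHOX10 peak. They are printed to 30 bases after the start site, on the gene's strand, from chr6:125286052-125286331 (minus) for Tuba3a, chr6:145615713-145615992 (plus) for Tuba3b and chr15:98953472-98953751 (minus) for Tuba1a. Capitals mark matches, on either strand, to 4 motifs. The first is TAAT, the core that many homeodomains bind. The next, CCAAT, is a common promoter element bound by the factor NF-Y. GGGCGG is the element that Sp1 binds in many promoters. The last is TATAAA, which positions the transcription start in some genes. None of these motifs contains another.
Tuba3a: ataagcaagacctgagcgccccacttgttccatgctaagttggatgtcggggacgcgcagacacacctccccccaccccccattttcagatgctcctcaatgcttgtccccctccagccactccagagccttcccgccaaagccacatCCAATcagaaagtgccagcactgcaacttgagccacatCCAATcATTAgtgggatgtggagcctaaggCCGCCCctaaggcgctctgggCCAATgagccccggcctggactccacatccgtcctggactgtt
Tuba3b: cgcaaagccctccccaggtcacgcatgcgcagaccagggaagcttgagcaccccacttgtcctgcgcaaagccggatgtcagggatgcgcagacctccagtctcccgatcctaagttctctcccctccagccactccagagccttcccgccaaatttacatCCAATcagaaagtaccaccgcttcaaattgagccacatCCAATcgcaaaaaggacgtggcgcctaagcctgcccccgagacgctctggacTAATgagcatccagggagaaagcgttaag
Tuba1a: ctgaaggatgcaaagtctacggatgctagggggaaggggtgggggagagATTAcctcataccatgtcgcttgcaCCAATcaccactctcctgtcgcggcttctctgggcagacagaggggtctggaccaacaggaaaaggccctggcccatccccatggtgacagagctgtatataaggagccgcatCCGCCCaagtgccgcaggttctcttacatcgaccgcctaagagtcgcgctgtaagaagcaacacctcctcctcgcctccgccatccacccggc
The Tuba3a and Tuba3b windows had 66.0% of 300 bases identical in a global alignment, while the other 20 pairs of members had 41.7% to 50%. Their longest common run was 33 bases, starting 142 bases before the start of Tuba3a and 129 before that of Tuba3b. In both promoters 2 CCAAT matches on the gene's strand lay 38 bases apart, at 102 and 64 bases before the start of Tuba3a and at 89 and 51 before that of Tuba3b. Tuba3a had another CCAAT at 13 bases before its start. CCAAT was present on either strand in 37.4% of 32851 RefSeq promoters, TAAT in 58.0%, GGGCGG in 35.7% and TATAAA in 13.6%. TAAT occurred in the Tuba1a, Tuba3a and Tuba3b promoters, once in each, and Tuba8 had none of the 4 motifs. A match is a description of these letters, not a bound site.

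In wild-type sorted germ cells, 5 of the 7 genes were expressed at comparable levels, and in the libraries labelled null Tuba3a and Tuba3b were several-fold lower. Tuba3a (ENSMUSG00000067702, GRCm38 chromosome 6, 125278274 to 125286042, minus strand) had 49.2, 49.7, 48.0 and 50.3 CPM in wild-type replicates 1 to 4. The same gene had 7.54, 9.14, 8.05 and 8.75 CPM in labelled null replicates 1 to 4. The groups lay far apart, with every labelled null library below every wild-type library. The log2 fold change was -2.57 (standard error 0.0778), or 5.92-fold lower.

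Tuba3b (ENSMUSG00000067338, GRCm38 chromosome 6, 145615757 to 145621479, plus strand) had 42.7, 41.9, 47.1 and 44.6 CPM in wild-type replicates 1 to 4. Labelled null replicates 1 to 4 had 5.57, 6.09, 6.01 and 4.44 CPM. Again the groups did not overlap. The log2 fold change was -2.99 (standard error 0.0912), or 7.92-fold lower. Among 13538 genes tested, Tuba3b ranked 1 and Tuba3a 5 from the lowest fold change, and among the 8320 genes with a mean of at least 5 CPM they ranked 1 and 3. Counted as 1 gene, which does not depend on how reads were divided between the copies, the pair had a log2 fold change of -2.75.

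The Tuba1 genes lie together on chromosome 15 and supply most alpha-tubulin RNA of these cells. Tuba1a (ENSMUSG00000072235, 98949837 to 98953703, minus strand) had 56.4 ± 2.18 CPM in wild-type and 46.8 ± 2.82 CPM in labelled null libraries (SD, n = 4 each), a log2 fold change of -0.27 that was 0.59 when libraries were scaled to germ cell genes and 0.08 with library totals alone. Tuba1b (ENSMUSG00000023004, 98931425 to 98934565, minus strand) had 85.9 ± 4.51 and 73.5 ± 4.12 CPM, or -0.22, against 0.64 and 0.13 with those scalings. Tuba1c (ENSMUSG00000043091, 99029891 to 99038110, plus strand) had 98.0 ± 4.68 and 86.3 ± 5.90 CPM, or -0.19, against 0.67 and 0.16. With TMM scaling each Tuba1 gene had all 4 labelled null libraries below all 4 wild-type ones, but the direction of these small differences depended on the scaling. Tuba3a and Tuba3b stayed lower under both scalings, at -1.71 and -2.13 with germ cell scaling and at -2.22 and -2.64 with library totals. Those scalings moved the median of all genes from 0.00 to 0.86 and 0.35, so relative to it the Tuba1 genes remained slightly below. They also moved the calls over all genes from 2518 higher and 2553 lower to 12039 and 76 with germ cell scaling, and to 7229 and 629 with library totals.

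Tuba4a (ENSMUSG00000026202, GRCm38 chromosome 1, 75214228 to 75219865, minus strand), whose product lacks the terminal tyrosine, had 1.99 to 3.66 CPM in wild-type and 1.56 to 2.91 CPM in labelled null libraries, which overlapped. Tuba8 (ENSMUSG00000030137, GRCm38 chromosome 6, 121210696 to 121226854, plus strand), the most divergent member, had at most 1 count in a wild-type and 2 in a labelled null library and was left out by the filter on low counts. Of the 7 members, 5 had all labelled null libraries below all wild-type ones, which held for 16.4% of all genes tested. Because the choice of the family used this contrast, nothing is read from that count.

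Per kb of exon, the order of levels in wild-type libraries was Tuba1b at 45.8 ± 2.41 CPM per kb, Tuba1c at 42.9 ± 2.05, Tuba3a at 32.7 ± 0.663, Tuba1a at 31.3 ± 1.21, Tuba3b at 24.8 ± 1.31, Tuba4a at 0.764 ± 0.223 and Tuba8 at 0.0337 ± 0.0394 (SD, n = 4). Tuba1b and Tuba1c overlapped, as did Tuba3a and Tuba1a, and the other neighbours in this order did not. In labelled null libraries Tuba3a, at 5.55 ± 0.473 CPM per kb, and Tuba3b, at 3.11 ± 0.428, stood below all 3 Tuba1 genes, which had 26 ± 1.56 to 39.2 ± 2.2. With TMM scaling the summed level of the 7 genes was 337 ± 8.81 CPM in wild-type and 223 ± 12 CPM in labelled null libraries (SD, n = 4 each). The Tuba3 pair supplied 27.8% ± 0.934 of these counts in wild-type and 6.24% ± 0.349 in labelled null libraries. The summed beta-tubulin genes, the other part of the dimer, were at 283 ± 7.82 and 226 ± 6.81 CPM.

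**Figure D2:**
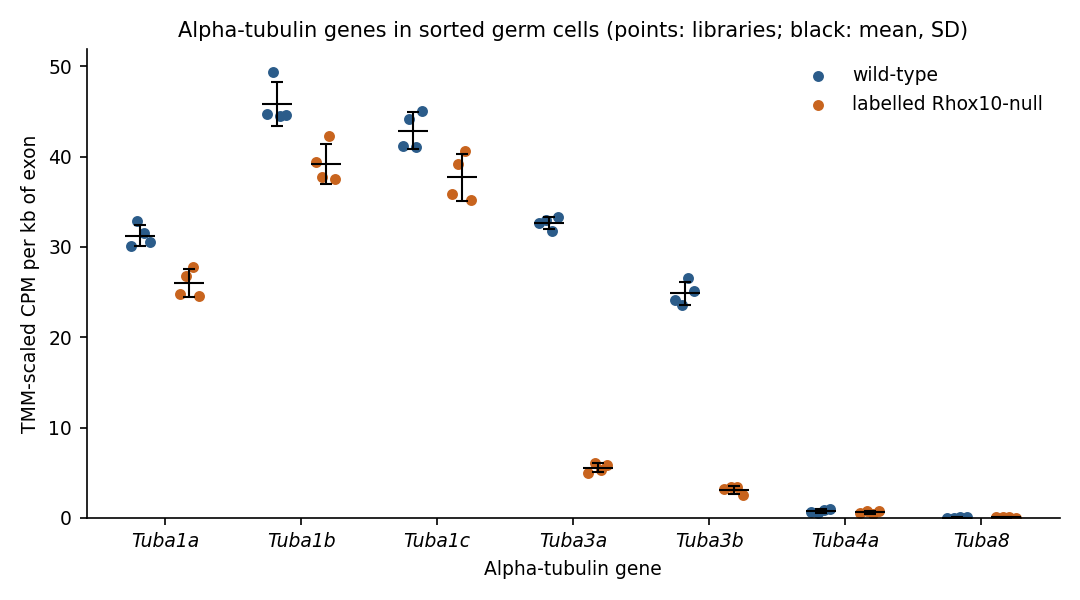
TMM-scaled CPM per kb of exon (y axis) of the 7 alpha-tubulin genes in 4 wild-type and 4 labelled null libraries of sorted germ cells. Points are libraries and black marks the mean and SD. Tuba3a and Tuba3b lie at 31.8 to 33.4 and 23.6 to 26.6 in wild-type and at 4.99 to 6.06 and 2.5 to 3.43 in labelled null libraries, a direction kept under each scaling tried.

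Markers of several cell types differed between the labelled genotypes. The summed level of 18 germ cell markers was 375 to 408 CPM in wild-type and 206 to 224 CPM in labelled null libraries, and all 16 of the markers tested were lower (edgeR's quasi-likelihood test with TMM scaling), with a median log2 fold change of -0.83 against 0.00 over all genes. Over all genes 18.9% were lower with TMM scaling. With library totals 12 of the 16 were lower and the median was -0.48. With germ cell scaling, which is set by these 16 markers, 3 were lower and 2 higher, with a median of 0.03. Erythroid markers summed to 1.36 to 4.07 CPM, with Slc4a1 at 0 in every wild-type library, and to 78.3 to 86.8 CPM in labelled null libraries. In the same order, stromal markers summed to 418 to 442 and 670 to 706 CPM, and Sertoli markers to 312 to 332 and 360 to 380. By gene, however, 1 of the 6 Sertoli markers was higher, 1 lower and 4 did not pass, with a median log2 fold change of 0.04. Leydig markers summed to 71.8 to 73.6 and 87.1 to 92.9 CPM, endothelial markers to 23.9 to 29.2 and 35.8 to 40.4, and macrophage markers to 16.8 to 18.8 and 21.9 to 23.9. With TMM scaling 6 of 6 erythroid, 5 of 5 stromal, 4 of 5 Leydig, 3 of 4 endothelial and 2 of 4 macrophage markers tested were higher. Of these lists 0 genes were lower, and over all genes 18.6% were higher. In bulk libraries fewer cells of a type and less RNA per cell cannot be told apart, and the part of these markers in the values of the alpha-tubulin genes was not tested.

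In cultured germline stem cells, the Rhox10 vector and the empty vector differed in 4 of the 6 members tested over the induced times, and the Tuba3 copies went opposite ways. Averaged over 0.5 to 8 h, Tuba3b, Tuba1a and Tuba1b were higher and Tuba3a was lower with the Rhox10 vector, while Tuba1c and Tuba4a did not pass (edgeR's quasi-likelihood test on 24 libraries, Benjamini-Hochberg adjusted p under 0.05). Over all 20642 genes 37.1% passed, 18.7% higher and 18.4% lower. The differences between vectors in Tuba1a, Tuba3a and Tuba3b were present at 0 h, before induction, and no member's difference passed a test of change from 0 h. Each group had 2 libraries, described as biological replicates, so the p-values measure the spread between these libraries.

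Tuba3b had 7.12 CPM in the lowest, 8.33 in the median and 11.5 in the highest of 12 Ctrl libraries. With the Rhox10 vector the lowest was 11.6, the median 15.2 and the highest 20.2 CPM. All 12 Rhox10 vector libraries lay above all 12 Ctrl libraries, an order found in 2.79% of all genes, with the 2 sets nearly touching. The averaged log2 fold change was 0.83 (standard error 0.0982, 95% interval 0.64 to 1.02), with an adjusted p of 3.81e-07 from edgeR's quasi-likelihood test, and the Rhox10 vector was higher at 6 of 6 times. These are 70 to 249 counts per library, the lowest of the 6 genes tested.

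Tuba3a, its near-copy, was abundant and lower with the Rhox10 vector. It had 708 CPM in the lowest, 863 in the median and 957 in the highest Ctrl library. The Rhox10 vector libraries had 594 CPM at the lowest, 677 at the median and 740 at the highest. At 5 of 6 times both Rhox10 vector libraries were below both Ctrl libraries, and at 0.5 h they overlapped. The averaged log2 fold change was -0.36 (standard error 0.0341, 95% interval -0.43 to -0.30), with an adjusted p of 9.87e-09 from edgeR's quasi-likelihood test. Counting both Tuba3 copies as 1 gene gave -0.35 (adjusted p 1.87e-08, edgeR), the direction of Tuba3a, which made up 97.3% to 99.2% of Tuba3 counts in these libraries. In the RNA-seq of wild-type cells that share was 50.5% to 54.3%.

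Tuba1a, best known from neurons, was higher with the Rhox10 vector and declined over the course in both vectors. Ctrl libraries held 191 and 228 CPM at 0 h, then 201 with 182 (0.5 h) and 169 with 183 (1 h). Later they held 160 with 159 (2 h), 139 with 139 (4 h) and 128 with 141 CPM (8 h). Rhox10 vector libraries held 283 and 292 CPM at 0 h, then 265 with 274 (0.5 h) and 264 with 294 (1 h). The Rhox10 vector was above Ctrl in both libraries at every time up to then, and this order went on to the end. Its later libraries held 211 with 223 (2 h), 168 with 178 (4 h) and 143 with 166 CPM (8 h). The averaged log2 fold change was 0.42 (standard error 0.0410, 95% interval 0.34 to 0.50), with an adjusted p of 1.64e-08 from edgeR's quasi-likelihood test. With Tuba1a, Tuba1b and Tuba1c counted as 1 gene it was 0.17 (adjusted p 0.00151, edgeR).

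From 0 to 8 h Tuba1a fell by 0.64 on the log2 scale in Ctrl (adjusted p 9.50e-05) and by 0.89 with the Rhox10 vector (adjusted p 3.63e-07, edgeR's quasi-likelihood test). It was the only member to pass in either vector, where 6.52% of genes passed in Ctrl and 7.18% with the Rhox10 vector. Without a filter on low counts, Tuba3a also passed in Ctrl at 0.22 (adjusted p 0.0316) and Tuba1c with the Rhox10 vector at -0.28 (adjusted p 0.0132, edgeR). The difference between the 2 falls was -0.25 (95% interval -0.51 to -0.00), and the test of change over all induced times gave an adjusted p of 0.366. With Tuba1a, Tuba1b and Tuba1c counted as 1 gene, the log2 change was -0.25 in Ctrl, which did not pass (adjusted p 0.104), and -0.41 with the Rhox10 vector, which did (adjusted p 0.00574, edgeR).

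Tuba1b, the widely expressed housekeeping member, ran from 131 to 171 CPM in Ctrl, with a median of 145, and from 134 to 210 with the Rhox10 vector, with a median of 168. The vectors overlapped at 4 of 6 times, and the averaged log2 fold change was 0.20 (standard error 0.0526, adjusted p 0.00476, edgeR). Tuba1c ran from 334 to 603 CPM in Ctrl and from 321 to 446 with the Rhox10 vector, an averaged log2 fold change of 0.04 (95% interval -0.07 to 0.15, adjusted p 0.639, edgeR). Its highest value came from 1 of the 2 Ctrl libraries that stood apart at 0.5 h, which had 346 and 603 CPM. Without that library the averaged difference was 0.13 and passed (adjusted p 8.76e-07), without its partner it was -0.02 (adjusted p 0.427), and without the 0.5 h time it was 0.10 (adjusted p 0.000403, edgeR). Tuba4a had 48.3 to 61.6 CPM in Ctrl and 50.4 to 66.7 with the Rhox10 vector, a log2 fold change of 0.11 (95% interval 0.01 to 0.21, adjusted p 0.0877, edgeR). It passed without Ctrl replicate 2 at 0.5 h, at 0.13 (adjusted p 0.0317), and without Ctrl replicate 1 at 4 h, at 0.16 (adjusted p 0.0224, edgeR). Tuba8 had 0 to 6 counts per library and was not tested.

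**Figure D3:**
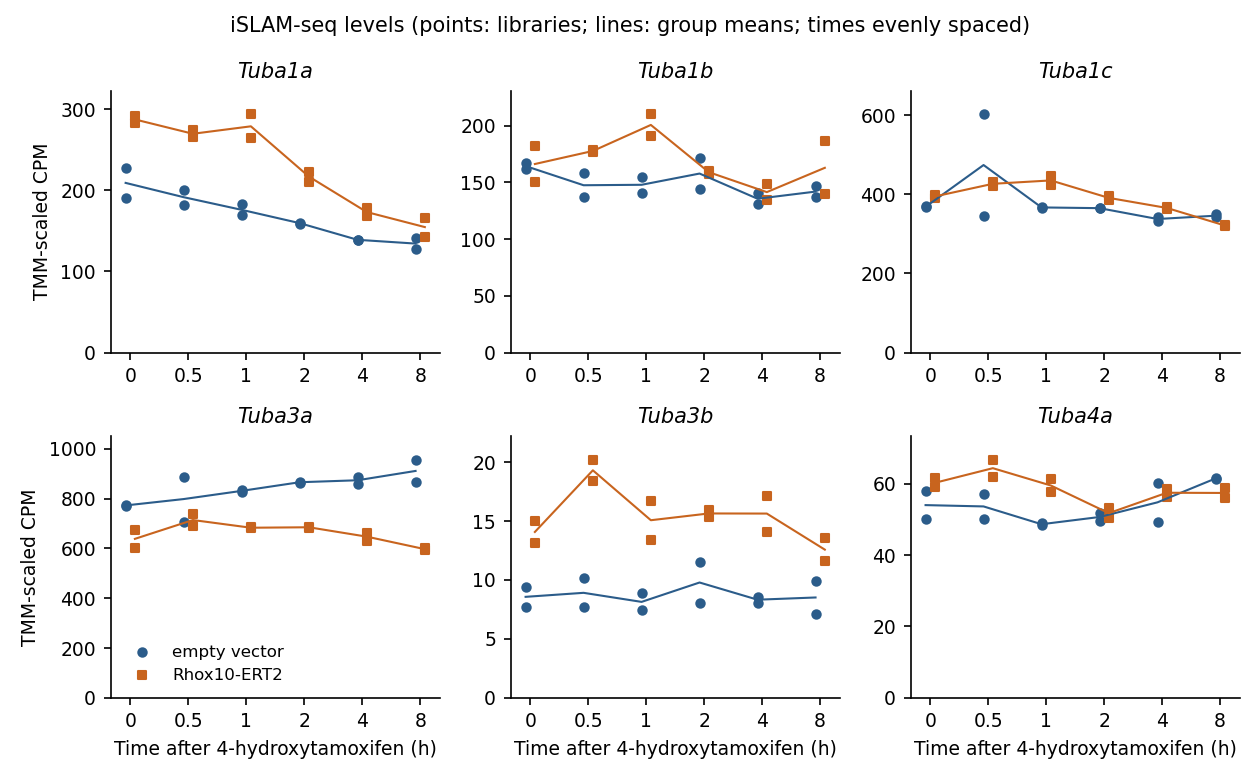
TMM-scaled CPM (y axis) of 6 alpha-tubulin genes at 0 to 8 h after 4-hydroxytamoxifen, with times evenly spaced on the x axis. Points are libraries, 2 per vector and time, and lines join group means. Tuba1a falls in both vectors from 191 to 292 CPM at 0 h to 128 to 166 CPM at 8 h, and every Tuba3b library with the Rhox10 vector lies above every empty vector library.

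Time by time, the differences of Tuba1a, Tuba1b, Tuba3a and Tuba3b varied in size but kept their sign. Those of Tuba1c and Tuba4a passed at no time in the fit of all 24 libraries and changed sign. Tuba1c was at -0.15 at 0.5 h, 0.25 at 1 h and -0.11 at 8 h, and Tuba4a at 0.29 at 1 h and -0.10 at 8 h. At 0 h, 3 of 6 members passed against 10.9% of all genes. These were Tuba1a at 0.46 (adjusted p 0.00160), Tuba3a at -0.28 (adjusted p 0.0208) and Tuba3b at 0.72 (adjusted p 0.0379, all edgeR's quasi-likelihood test). Leaving out 1 library of that time left 0 to 2 of these calls, with none left without Ctrl replicate 1. Tuba3b also missed without a filter on low counts (adjusted p 0.0672) and in a fit of that time alone (adjusted p 0.0564, edgeR). At 0.5 h, 2 passed against 14.5% of genes, Tuba1a at 0.49 and Tuba3b at 1.12, and 5 passed without Ctrl replicate 2 of that time. Fitted on 0.5 h alone, 0 members passed, with Tuba1a at an adjusted p of 0.263 and Tuba3b at 0.222 (edgeR), and none of 17436 genes passed, 2336 of them being under 0.05 unadjusted. With the 3 Tuba1 copies counted as 1 gene, the difference passed at 1 h (0.41, adjusted p 0.00466) but not at 0 h (0.19, adjusted p 0.199), 0.5 h (0.10, adjusted p 0.512), 2 h (0.17, adjusted p 0.301) or 4 h (0.15, adjusted p 0.344, edgeR).

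At 1 h, 4 passed against 9.91% of genes. These were Tuba1a at 0.66, Tuba1b at 0.44, Tuba3a at -0.28 and Tuba3b at 0.89, and leaving out any 1 of the 4 libraries left 1 to 2 calls. At 2 h, 2 passed against 10% of genes, Tuba1a at 0.44 and Tuba3a at -0.34, and Tuba3b at 0.67 just missed (adjusted p 0.0502, edgeR), passing with DESeq2 (adjusted p 0.0324) and without Ctrl replicate 2 (adjusted p 0.0417). Fitted on 1 h alone, Tuba1c (0.26, adjusted p 0.0003) and Tuba4a (0.30, adjusted p 0.0376, edgeR) also passed. So did Tuba3b on 2 h alone (0.69, adjusted p 0.0207) and Tuba1c on 4 h alone (0.13, adjusted p 0.0198, edgeR). At 4 h, 3 passed against 12.2% of genes, Tuba1a at 0.32, Tuba3a at -0.43 and Tuba3b at 0.91. Only 1 call was left there without either Ctrl library or without Rhox10 replicate 2.

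At 8 h, 1 passed against 16.8% of genes, Tuba3a at -0.61 (standard error 0.0765, adjusted p 4.72e-06, edgeR), 1.53-fold lower. Fitted on 8 h alone, 3 members passed, with Tuba1a (0.21, adjusted p 0.0143) and Tuba1b (0.21, adjusted p 0.0139, edgeR) beside Tuba3a. Tuba1a at 8 h was 0.20 (95% interval 0.02 to 0.39, adjusted p 0.147) and Tuba3b 0.56 (95% interval 0.12 to 1.00, adjusted p 0.0941, edgeR), and 3 members passed without Rhox10 replicate 1. The difference of Tuba3a was thus -0.28 at 0 h and -0.61 at 8 h, a change of -0.33 (95% interval -0.55 to -0.12). Tested over all induced times, the change from 0 h passed for 0 of 6 members, against 2.39% of all genes, with adjusted p from 0.172 for Tuba3a to 0.851 for Tuba3b (edgeR's quasi-likelihood F-test). Unadjusted, 2 members and 2465 of all 20642 genes were under 0.05, and DESeq2 also called 0 members. Leaving out either Ctrl library at 0.5 h brought 4 members past the threshold, Tuba1a at -0.23 and -0.25, Tuba1b at 0.21 and 0.19, Tuba1c at -0.18 and -0.21, and Tuba3a at -0.31 and -0.34 (8 h minus 0 h). Over all genes 4331 of 22220 passed without replicate 1 of that pair and 1555 of 22173 without replicate 2. Without the 0.5 h time the same 4 passed, and Tuba3a alone passed without a filter on low counts (adjusted p 0.0190, edgeR). Whether these 4 changes passed thus turned on 2 libraries of the empty vector.

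**Figure D4:**
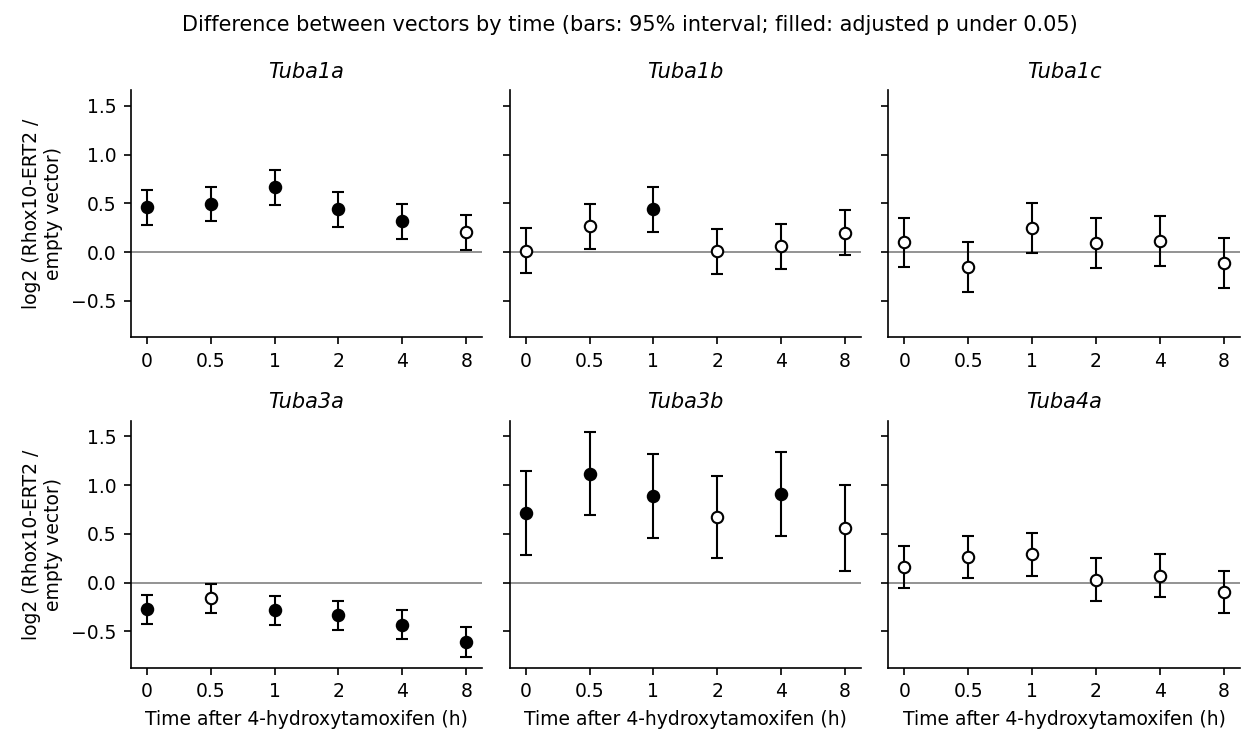
Log2 ratio of the Rhox10 vector to the empty vector (y axis) for 6 alpha-tubulin genes at each time (x axis), with 95% intervals from the edgeR fit. Filled circles passed an adjusted p of 0.05. Tuba3a runs from -0.28 at 0 h to -0.61 at 8 h, while Tuba1a passes at 0 to 4 h and reaches 0.20 at 8 h.

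Germ cell markers also differed between the vectors. Of the 18, 12 were lower with the Rhox10 vector in the averaged contrast and 6 did not pass (edgeR), against 18.4% lower over all genes. Their median log2 fold change was -0.31, and their summed level was 2200 to 2965 CPM in Ctrl and 2200 to 2545 CPM with the Rhox10 vector. At 0 h, before induction, 6 of the 18 were already lower, with a median of -0.25, where 10.9% of all genes passed. The change from 0 h passed for 1 of the 18, against 2.39% of all genes. Stromal markers summed to 793 to 1368 and 878 to 1685 CPM, and Sertoli markers to 182 to 444 and 233 to 556 CPM with Amh at 0 in every library. Leydig markers summed to 9.31 to 17.4 and 8.13 to 14.2 CPM with Insl3 and Hsd3b1 at 0, endothelial markers to 31.3 to 46.8 and 19.8 to 32.0, macrophage markers to 19.9 to 33.2 and 17.6 to 24.5, and erythroid markers to 0.296 to 2.31 and 0.202 to 1.61 with Hbb-bt at 0 in both vectors. By gene, in the averaged contrast, 3 of 5 stromal markers were higher and 1 lower, and 3 of 4 endothelial markers were lower. Of 4 Sertoli and 3 macrophage markers tested, 1 each was higher and 1 lower. Of 2 erythroid markers tested 1 was lower, and of 2 Leydig markers 0 passed. The part of these markers in the vector differences was not tested.

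The genes most like each member over the 24 iSLAM-seq libraries were found by Pearson correlation of log2 CPM, as a description that mixes vector and time. Tuba1a was nearest Nr4a2 and Plk2 at 0.941 and 0.940, and within the vectors Nr4a2 kept 0.834 in Ctrl and 0.970 with the Rhox10 vector. Tuba3a was nearest Smc1b, a meiotic cohesin subunit, and Nlrp4c at 0.937 and 0.936, with 0.699 and 0.758 for Smc1b within the vectors. Tuba3b was nearest Ass1 and Plin2 at 0.926 and 0.915, but within Ctrl these were 0.373 and 0.375. Tuba1c was nearest Nmt1 and Kidins220 at 0.884 each, Tuba1b nearest Cox8a and Hspb1 at 0.801 and 0.768, and Tuba4a nearest 4930435F18Rik and Parm1 at 0.715 and 0.704. The search covered 20636 genes that are not members.

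RHOX10 binding in CUT&Tag was annotated to 1 of the 7 genes. The peak of Tuba1a spans 603 bases on chromosome 15, 98953273 to 98953875, and covers the whole promoter window printed above. The authors' table annotates it as promoter-TSS with its centre 73 bases before the start site and a score of 106.9, which ranked 2944 of 5147 peaks. Of all genes tested in iSLAM-seq, 19.8% had a peak within 3 kb of a start site. The centre of the Tuba1a peak lay 129 bases from the GENCODE M21 start of the gene. The nearest peaks to the other 6 members lay 19.0 to 130.7 kb from their GENCODE M21 starts, and none was assigned to them. For Tuba3a and Tuba3b, the members with the largest RNA-seq fold changes, these distances were 94.2 and 130.7 kb. Tuba1a was higher with the Rhox10 vector at 0 h and at each time to 4 h, as given above.

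A list of 44 tubulin partner genes, made up of the other tubulins, folding cofactors, modifying enzymes and stathmins, was examined beside the family, and 43 had a row. In RNA-seq 32 were tested, and with TMM scaling 3 were higher, 6 lower and 23 did not pass in labelled null libraries, but with germ cell scaling 30 were higher and 0 lower, and with library totals 16 and 1 (edgeR's quasi-likelihood test). Over all genes 37.5% passed with TMM scaling, 18.6% higher and 18.9% lower. With germ cell scaling 12039 of all 13538 genes were higher and 76 lower, and with library totals 7229 and 629. Those 2 scalings raised the median of all genes to 0.86 and 0.35, so the 3 genes that were higher could only move further up. The values of the others are given for TMM, germ cell and library-total scaling in that order. Agbl2, a carboxypeptidase that trims tubulin glutamates, was higher at 1.53 (adjusted p 8.35e-05), with 0.894 ± 0.371 CPM in wild-type and 2.66 ± 0.275 CPM in labelled null libraries (SD, n = 4 each, edgeR). Atat1, the alpha-tubulin acetyltransferase, was higher at 0.72, and Ttll4, a polyglutamylase, at 0.21. Tubb4b, a beta-tubulin of axonemes, was at -0.60, 0.26 and -0.25, with 62.6 ± 5.05 CPM in wild-type and 41.6 ± 4.40 CPM in labelled null libraries (SD, n = 4 each). Tubg1, the gamma-tubulin that nucleates microtubules, was at -0.60, 0.26 and -0.25, Ttll12 at -0.59, 0.27 and -0.24, and the folding cofactor Tbca at -0.37, 0.49 and -0.02. The remaining calls, named after their values were seen, were Tubb5 at -0.32, 0.54 and 0.03 and Stmn1 at -0.27, 0.59 and 0.08.

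In iSLAM-seq, averaged over the induced times, 9 of 37 partners tested were higher with the Rhox10 vector, 7 lower and 21 did not pass (edgeR's quasi-likelihood test), against 18.7% higher and 18.4% lower over all genes, with a median of 0.08 against 0.00 over all genes. The 4 highest among those called were Tubb2b at 0.98, Tubb3 at 0.75 and Tubb2a at 0.55, all beta-tubulins known from neurons, and Ttl, the ligase that restores the terminal tyrosine, at 0.54. Tubb2b had 8.87 ± 3.24 CPM in Ctrl and 17.4 ± 4.68 CPM with the Rhox10 vector (SD over 10 libraries each), an adjusted p of 6.98e-08. The 4 lowest were the polyglutamylase Ttll6 at -0.81, the tubulin deacetylase Hdac6 at -0.43, Tubg1 at -0.39 and Ttll12 at -0.34. Tubg1 had 162 ± 18.9 CPM in Ctrl and 123 ± 8.08 CPM with the Rhox10 vector (SD over 10 libraries each, adjusted p 1.15e-08, edgeR). At 0 h, before induction, 5 of 37 partners already passed as higher and 1 as lower, against 10.9% of all genes. Of those named above for this contrast, Tubb2b (1.16), Tubb2a (0.78) and Tubg1 (-0.46) passed then, and the others did not. The change from 0 h passed for 0 of 37 partners (edgeR, 3 at an unadjusted p under 0.05), for 1 with DESeq2 and for 5 without Ctrl replicate 1 at 0.5 h. Peaks within 3 kb of a start site were annotated to 13 of the 44 partners, against 19.8% of genes tested in iSLAM-seq. In order of peak score these were Ttll5, Tubb4b, Tbcb, Hdac6, Agbl5, Ttll4, Svbp, Tubb2b, Agtpbp1, Ttl, Tube1, Tbcel and Tubg2.

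**Figure D5:**
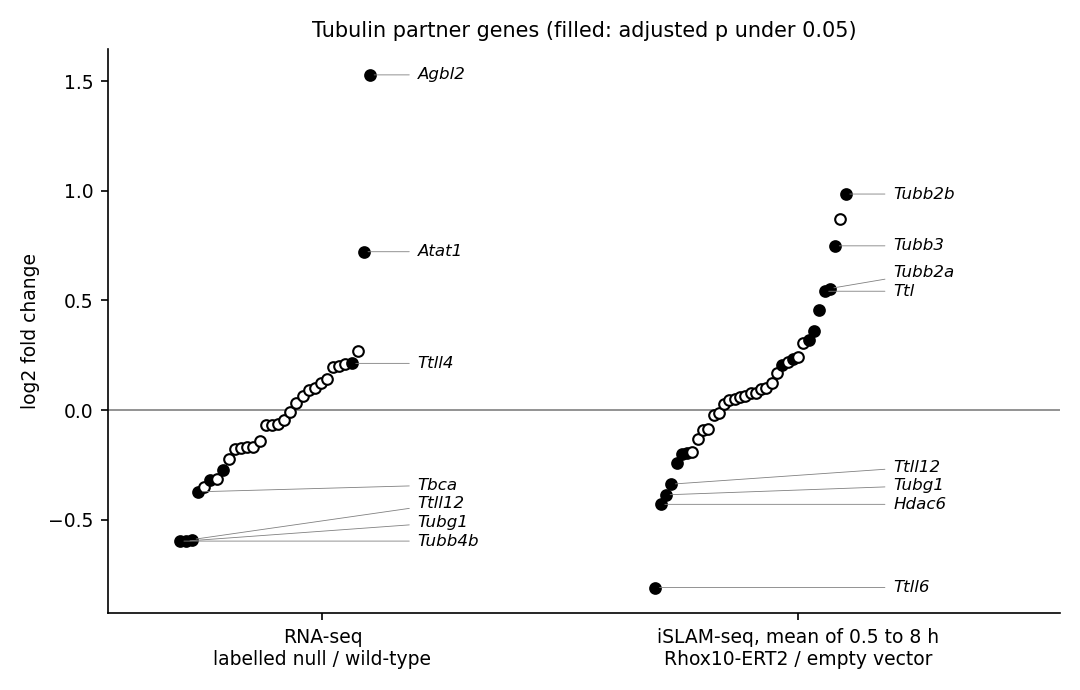
Log2 fold change (y axis) of tubulin partner genes in RNA-seq (labelled null to wild-type, 32 genes) and in iSLAM-seq averaged over 0.5 to 8 h (Rhox10 vector to empty vector, 37 genes), each circle a gene, in rank order within its contrast. Filled circles passed an adjusted p of 0.05 in edgeR with TMM scaling. Agbl2 stands highest in RNA-seq at 1.53 and Tubb2b in iSLAM-seq at 0.98, and the 6 filled circles below 0 in RNA-seq lie above 0 with germ cell scaling.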

How the data were processed

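The authors deposited whole-number counts per gene for RNA-seq and iSLAM-seq, and a peak table in which each peak has a score given by the authors. RNA-seq was processed with STAR 2.5.2b, featureCounts of Subread, and DESeq2 on GRCm38, and CUT&Tag with Bowtie2 2.2.5, SAMtools and HOMER on mm10, per the submitters' processing notes, which also name limma 3.42.2. Settings for strand and for reads that fit several genes, and whether iSLAM-seq counts hold all or only converted reads, are not given in the sources used here. Each peak row lists 3 libraries, per the file headers.

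Of 55536 gene identifiers, 55450 matched GENCODE M21 symbols. Counts were filtered with filterByExpr, scaled by TMM and tested with edgeR 4.0.16 in R 4.3.3, with 1 model per assay and Benjamini-Hochberg adjustment over all genes tested (13538 and 20642), at a threshold of 0.05. The change from 0 h was 1 F-test over the 5 induced times. Alternatives were DESeq2 1.42.0, other scalings (germ cell scaling used 16 markers), other filters, summed copies, a replicate block and left-out libraries. Sequences were read with Python 3.11.15 and compared with Biopython 1.88. The scripts' tests were checked on simulated data. Genes named are all members, Rhox10, up to 4 called partners at each end, and the 2 non-members most correlated with each member. Partners with a peak within 3 kb are also named. The members and gene lists were chosen with earlier results of these data known. Replicate numbers did not pair libraries, since same-numbered libraries deviated together with r of -0.0192 to 0.0353.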

Additional observations from a re-analysis of the deposited data

Results flagged for a closer look

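Tuba1b in the wild-type RNA-seq libraries had 1 library far from the others. Replicate 2 was at 92.7 CPM and the other 3 at 83.4 to 83.8 CPM, so the gap made up 0.959 of the group's range, above Dixon's critical value for a group of 4. Of 14 groups of members examined this way 1 stood out, and chance gives about 0.7.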

How the results depend on the processing

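In RNA-seq, Tuba3a and Tuba3b stayed lower under every alternative run, at -2.75 with copies summed, -1.71 and -2.13 with germ cell scaling, and -2.22 and -2.64 with library totals. Those 2 scalings reversed Tuba1a (0.59 and 0.082), Tuba1b (0.64 and 0.13), Tuba1c (0.67 and 0.16) and Tuba4a (0.53 and 0.015). Genes called were 5071, against 12115 and 7858 with those scalings and 2980 with DESeq2, and partners called were 9, against 30 and 17. Without genes that held over 1% of a library's counts, 5039 genes were called. In the averaged iSLAM-seq contrast, Tuba1c passed with copies summed (0.17) and without the 0.5 h time (0.10), an alternative chosen after seeing the data, and Tuba3b took the sign of Tuba3a with copies summed (-0.35). For the change from 0 h, genes called were 494, against 835 with DESeq2, 1002 without a filter and 1496 without 0.5 h. Members called were 0 with DESeq2, 1 without a filter (Tuba3a -0.31) and 4 without 0.5 h (Tuba1a -0.25, Tuba1b 0.19, Tuba1c -0.20, Tuba3a -0.33). Partners called were 1 with DESeq2, with its size factors, above 1 CPM, without a filter and without 0.5 h, and Tuba1b was at -0.16 with copies summed. Between vectors, with copies summed, Tuba3b reversed at all 6 times (-0.26, -0.14, -0.27, -0.32, -0.41 and -0.59 in order of time) and from 0 to 8 h in Ctrl (0.24), and Tuba1c at 0.5 h (0.10) and 8 h (0.038). With library totals Tuba1b reversed from 0 to 8 h with the Rhox10 vector (0.0080) and at 2 h (-0.012). Fitted on 1 time alone, genes called were 0 at 0.5 h, and 3604, 3516, 4816 and 5237 at the later times in order. The cause of these shifts was not tested.

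Leaving out 1 library at a time, with a lone library assumed to vary like the other groups, moved the averaged difference of Tuba1c from -0.024 to 0.13 and of Tuba4a from 0.098 to 0.16. For the change from 0 h, genes called ran from 314 to 4331, the highest without Ctrl replicate 1 at 0.5 h, members from 0 to 4 and partners from 0 to 5. The changes ran from -0.36 to -0.10 for Tuba1a, -0.015 to 0.40 for Tuba1b, -0.21 to -0.16 for Tuba1c, -0.39 to -0.22 for Tuba3a and -0.35 to 0.14 for Tuba3b. From 0 to 8 h, genes called were 552 to 622 in Ctrl, with Tuba3b at -0.29 to 0.20, and 724 to 914 with the Rhox10 vector, with Tuba1b at -0.24 to 0.18. Genes called between vectors were 1076 to 1327 at 0 h, 1527 to 5984 at 0.5 h, 970 to 1022 at 1 h, 1022 to 1112 at 2 h, 1238 to 1334 at 4 h and 1976 to 2039 at 8 h. Tuba1b ran from -0.13 to 0.14 at 0 h, -0.10 to 0.14 at 2 h, -0.0056 to 0.16 at 4 h and -0.0036 to 0.42 at 8 h, Tuba1c from -0.51 to 0.30 at 0.5 h, and Tuba4a from -0.0033 to 0.070 at 2 h and -0.042 to 0.25 at 4 h.

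With the replicate block, 5066, 7687 and 502 genes were called in RNA-seq, the averaged contrast and the change from 0 h, against 5071, 7654 and 494. From 0 to 8 h in Ctrl, Tuba3a passed with the block (0.24, adjusted p 0.0431, against 0.0648 without, edgeR).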
